A study of Mus musculus with 6 samples.

Results

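A set of 10 genes of the acute phase response was followed in mouse liver with and without recombinant human cytoglobin (rhCYGB): Saa1, Saa2, Saa3, Orm1, Orm2, Lcn2, Apcs, Fga, Fgb and Fgg. They were chosen by gene symbol, and all 10 were found among the 24532 genes of the deposited table. Livers came from 6 wild-type C57BL/6 mice, all on a diet holding 0.1% DDC (3,5-diethoxycarbonyl-1,4-dihydrocollidine), a porphyrin-forming compound that injures bile ducts, for 4 weeks. Over the final 2 weeks 3 mice received 2 injections of rhCYGB weekly, each of 2 mg/kg, and 3 received saline vehicle, and livers were collected 2 days after dosing ended. Mice without DDC were not analysed here, so the values show how the treated and vehicle livers differed during injury and not how far either lay from a healthy liver. In whole liver, fewer cells of a type and less RNA per cell cannot be told apart.

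The acute phase response is the change in plasma protein output that the liver makes during injury or infection. Interleukin 6 acts through gp130 and STAT3, and interleukin 1 and tumour necrosis factor act through NF-kB and C/EBP factors, to raise transcription of these genes in hepatocytes. Serum amyloid A1 and A2 travel on high-density lipoprotein, serum amyloid A3 is also made by macrophages, adipocytes and epithelia, and orosomucoids (alpha-1-acid glycoproteins) bind drugs and dampen inflammation. Lipocalin 2 captures bacterial iron carriers and is made by hepatocytes, neutrophils and epithelia, serum amyloid P is a pentraxin, and the fibrinogen chains assemble into the clotting protein with paired copies of alpha, beta and gamma.

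Total estimated counts lay between 58422095 and 72431373 per library. Libraries of the treated group did not lie together: the first principal component, 66.1% of the variance, put rhCYGB replicate 1 at -56.6, within the vehicle range of -85.0 to -30.7, and rhCYGB replicates 2 and 3 at 60.3 and 150.04. In rhCYGB replicate 3 the ribosomal RNA gene Rn45s took 1.74% of counts, against 0.225% to 0.443% in the other libraries, and 14933 genes had a count, against 15542 to 16290 elsewhere. Counts were put on a common library size (CPM) by TMM, a trimmed-mean scaling, with factors of 1.07 to 1.45 for the vehicle libraries and of 1.18, 0.74 and 0.63 for rhCYGB replicates 1 to 3, which raises every gene in the last pair of libraries relative to their plain share. The other scale, TPM, is FPKM rescaled to the same total in every library: it is per length, but a rise of a few abundant transcripts lowers all others. All 10 listed hepatocyte markers were detected in every library, with summed TPM of 85663 to 98530.2 with vehicle and 102576 to 117263 with rhCYGB.

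The 3 serum amyloid genes lie within a cluster on chromosome 7 (mm10), Saa3 at 46711998 to 46715676, Saa1 at 46740499 to 46742980 and Saa2 at 46751833 to 46754314. Saa1 and Saa2 point away from each other and are separated by 8852 bases. Their transcripts were 93.9% identical in an alignment of the GENCODE M21 sequences, and 26.8% of the 31-base stretches of Saa1 were also found in Saa2, so their split is uncertain where reads fall in shared stretches. The upstream windows of Saa1 and Saa2 were 94.8% identical over the 250 bases before the start site, against 48.9% between Saa1 and Saa3. These windows are shown because Saa1 and Saa2 had lower values with rhCYGB, described below, and Saa3 higher ones by CPM. They come from RefSeq on GRCm38.p6, at chr7:46742981-46743230 (minus strand), chr7:46751583-46751832 (plus strand) and chr7:46715677-46715926 (minus strand), and capitals mark the motif matches described next.
Saa1: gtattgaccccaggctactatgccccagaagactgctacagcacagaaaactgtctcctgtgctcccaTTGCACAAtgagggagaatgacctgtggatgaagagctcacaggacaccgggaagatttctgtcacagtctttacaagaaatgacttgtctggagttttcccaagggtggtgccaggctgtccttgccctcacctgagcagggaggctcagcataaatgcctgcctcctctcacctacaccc
Saa2: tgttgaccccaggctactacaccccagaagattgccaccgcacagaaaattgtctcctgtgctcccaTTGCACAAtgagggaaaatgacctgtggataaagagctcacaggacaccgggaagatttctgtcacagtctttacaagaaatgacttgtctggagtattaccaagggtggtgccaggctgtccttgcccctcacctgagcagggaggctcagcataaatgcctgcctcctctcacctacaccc
Saa3: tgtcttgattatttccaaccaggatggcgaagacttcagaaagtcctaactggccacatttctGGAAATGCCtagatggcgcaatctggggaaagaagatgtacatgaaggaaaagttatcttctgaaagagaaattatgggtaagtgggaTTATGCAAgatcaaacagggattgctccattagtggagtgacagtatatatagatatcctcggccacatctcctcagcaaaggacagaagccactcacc

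The fibrinogen genes lie side by side on chromosome 3, in the order Fgg (83007724 to 83015056), Fga (83026153 to 83033617) and Fgb (83042246 to 83049863), with Fgb on the opposite strand. They are shown because the Fga to Fgb ratio, described below, was low in rhCYGB replicates 2 and 3 only, and Fgg to Fgb was not. Any part of the upstream sequence in this was not tested. Their windows come from the same RefSeq table: chr3:83025903-83026152 (plus strand) for Fga, chr3:83049864-83050113 (minus strand) for Fgb and chr3:83007474-83007723 (plus strand) for Fgg.
Fga: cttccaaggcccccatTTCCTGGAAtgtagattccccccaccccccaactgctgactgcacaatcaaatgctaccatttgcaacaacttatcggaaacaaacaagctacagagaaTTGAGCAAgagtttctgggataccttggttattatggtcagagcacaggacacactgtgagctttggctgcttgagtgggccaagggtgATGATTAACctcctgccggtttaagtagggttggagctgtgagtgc
Fgb: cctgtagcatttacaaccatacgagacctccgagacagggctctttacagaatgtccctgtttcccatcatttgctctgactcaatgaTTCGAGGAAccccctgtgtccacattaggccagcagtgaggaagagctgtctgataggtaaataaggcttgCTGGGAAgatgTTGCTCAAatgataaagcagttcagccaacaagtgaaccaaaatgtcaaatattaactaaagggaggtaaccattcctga
Fgg: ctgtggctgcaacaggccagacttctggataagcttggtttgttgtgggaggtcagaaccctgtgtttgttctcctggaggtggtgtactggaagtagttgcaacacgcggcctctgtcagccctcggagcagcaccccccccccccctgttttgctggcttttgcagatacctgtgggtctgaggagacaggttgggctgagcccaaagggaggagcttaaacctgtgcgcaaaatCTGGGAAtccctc

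Windows were listed for 9 of the 10 genes and searched on both strands for 5 motifs, which may overlap. The C/EBP motif TTGCNNAA was found in 7 of 9 windows, 182 bases before the start of Saa1 and 183 before that of Saa2, and in 9.56% of the 32851 windows of that length in the table. The STAT3 motif TTCNNNGAA was found in 3 of 9 (Apcs, Fga and Fgb) and in 7.02% of all windows. The interleukin 6 response element CTGGGAA was found in 3 of 9 (Apcs, Fgb and Fgg) and in 9.10%. The NF-kB motif GGNNTTTCC was found in 1 of 9 (Saa3) and in 4.93% of all windows, and the HNF1 motif GTTAATNAT in 1 of 9 (Fga) and in 0.737%. A match describes letters in the window and not a bound site. Only these exact letter patterns were searched, so a window without a match may still hold a variant of the motif.

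All 10 genes were expressed in every library, over a wide span of levels. By mean TPM over the 6 libraries Orm1 came first at 4728, followed by Fgb at 4624, Fgg at 4028, Lcn2 at 2354, Fga at 2155, Orm2 at 972, Saa1 at 777, Saa2 at 508, Apcs at 365 and Saa3 at 60.2. Several neighbours in that order did not separate: Orm1 exceeded Fgb in 3 of 6 libraries, Lcn2 exceeded Fga in 4, Orm2 exceeded Saa1 in 4 and Saa2 exceeded Apcs in 3. Fgb exceeded Fgg, and Saa1 exceeded Saa2, in 6 of 6. Among all genes Orm1 ranked between 14 and 29 by TPM. Such an order rests on the deposited transcript lengths, which for Fga and Fgb differ from those of GENCODE M21.

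**Figure D1:**
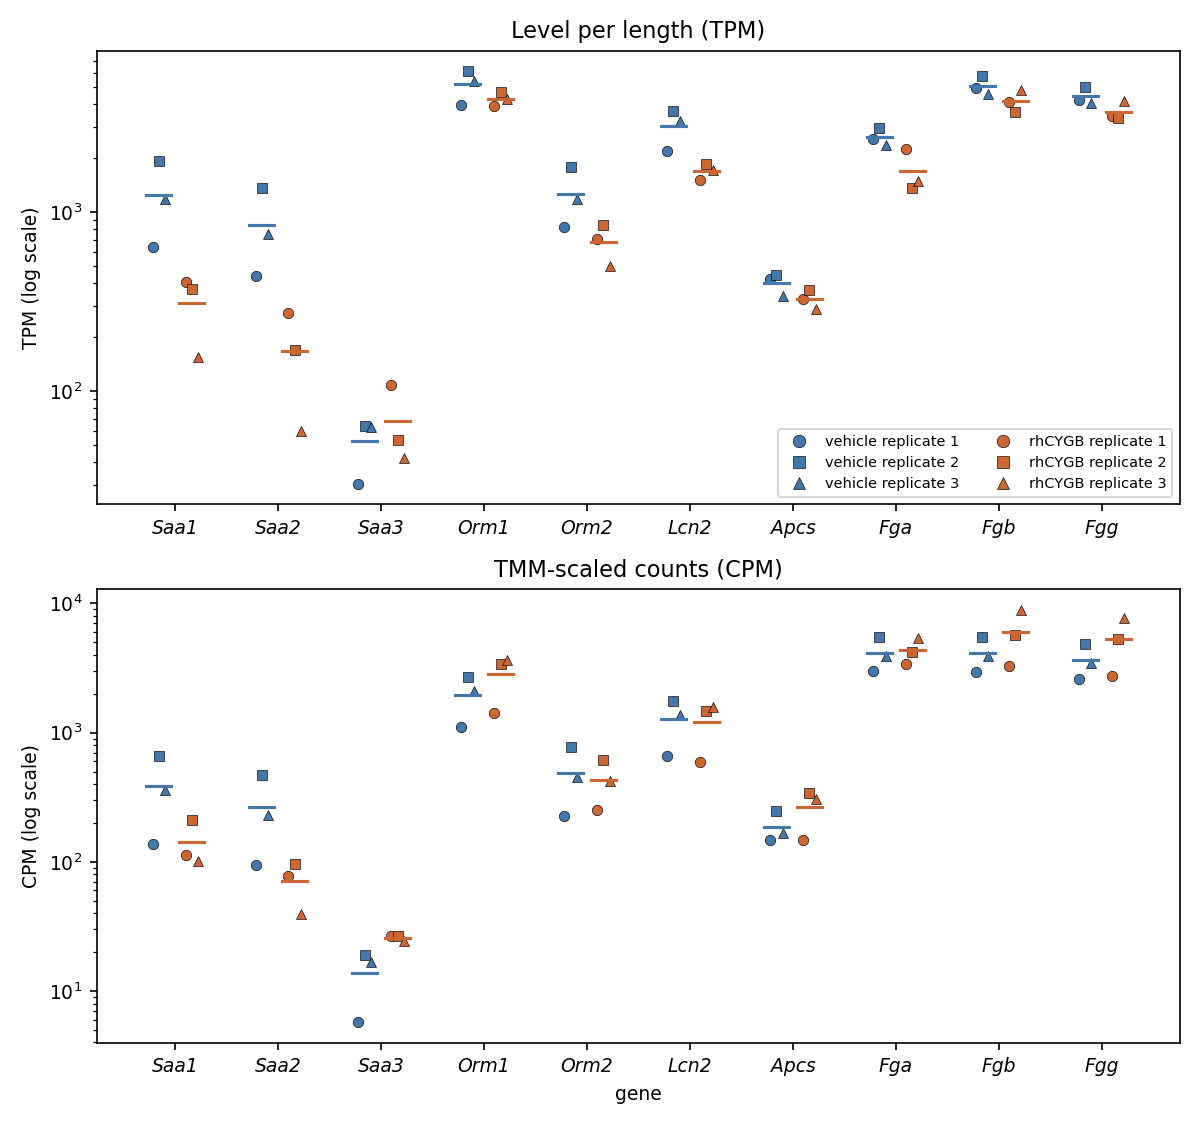
Level of the 10 genes in each library, as TPM (top) and as TMM-scaled CPM (bottom), both on log axes. Each point is 1 mouse, blue for vehicle and orange for rhCYGB, and lines are group means of 3 mice. Saa1 and Saa2 are lowest in rhCYGB replicate 3 on both scales, while Fgb and Fgg are highest in rhCYGB replicate 3 by CPM and in vehicle replicate 2 by TPM.

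Saa1 and Saa2 had lower mean values with rhCYGB, and Saa3 a higher one. Saa1 was at 137, 656 and 358 CPM in vehicle livers, and 114, 211 and 102 CPM in treated livers. Saa2 was at 94.9, 467 and 229 CPM and at 77.2, 96.6 and 39.5 CPM. Both were highest in vehicle replicate 2 and lowest in rhCYGB replicate 3, and vehicle replicate 1 lay below the highest treated library for both, so the groups overlapped. By edgeR's quasi-likelihood test the log2 fold change of Saa1 was -1.43 (SE 0.59, unadjusted p = 0.0454, adjusted p = 0.523), a 2.70-fold lower level. That of Saa2 was -1.89 (SE 0.62, unadjusted p = 0.0172, adjusted p = 0.523), 3.71-fold lower. Neither passed the threshold of an adjusted p of 0.05, which 0% of the 14415 genes tested passed, while 2.06% of genes were lower at an unadjusted p under 0.05 (8.12% in either direction). The DESeq2 test called Saa2 lower (log2 fold change -1.89, DESeq2 adjusted p = 0.0476), where 0.106% of the 1890 genes with an adjusted p were called lower, and limma-voom with sample quality weights called it too (-1.71, adjusted p = 0.0243, with 14.2% of genes called lower). Saa1 was called by neither (DESeq2 adjusted p = 0.0992, quality-weighted limma-voom adjusted p = 0.0575). The quality weights were 0.457, 2.35 and 4.38 for vehicle replicates 1 to 3. For rhCYGB replicates 1 to 3 they were 0.173, 2.60 and 0.473, so that fit leaned on rhCYGB replicate 2 in the treated group.

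On the TPM scale the groups did not overlap for Saa1, at 635, 1916 and 1178 in the 3 vehicle mice, against 405, 374 and 154 in the 3 treated mice, nor for Saa2, at 437, 1357 and 751 and at 273, 170.0 and 59.5. In TPM 12.7% of all genes were lower without overlap. Because reads can be divided wrongly between the 2 copies, their sum was taken as well: 1072, 3273 and 1929 TPM in vehicle livers, and 678, 544 and 214 TPM in treated livers, again without overlap. Set against the summed TPM of the fibrinogen chains, that was 9.21%, 23.9% and 17.6% in vehicle mice but 6.93%, 6.54% and 2.04% in treated ones. The size of the difference leaned on vehicle replicate 2. Without it the log2 fold change was -0.79 for Saa1 and -1.19 for Saa2, at unadjusted p = 0.198 and 0.0639 by edgeR. Without both rhCYGB replicates 2 and 3, where the single treated library is assumed to vary like the vehicle ones, it was -1.76 and -1.78, at unadjusted p = 0.0977 and 0.0992 by edgeR. With the trend of each library on transcript length removed it was -1.97 and -2.27. Without rhCYGB replicate 3, the library with the most Rn45s, it was -1.24 and -1.60, and neither gene had an unadjusted p under 0.05 by edgeR.

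Saa3 was the least abundant of the 10. It was at 5.74, 19.1 and 16.8 CPM in the 3 vehicle mice, against 26.5, 26.5 and 24.6 CPM in the 3 treated mice, so all treated libraries lay above all vehicle ones, as they did for 6.02% of genes. Its log2 fold change was 0.90 (SE 0.43, edgeR unadjusted p = 0.0759, adjusted p = 0.523). It was 0.52 without vehicle replicate 1, the lowest library, 0.42 with the length trend removed and 0.33 on log2(TPM + 1). The separation was not seen in TPM, where Saa3 was at 30.3, 63.9 and 63.1 in vehicle livers, and 108, 53.5 and 42.5 in treated livers, and there it was highest in rhCYGB replicate 1. Saa4, the constitutive member of the family and not among the 10 genes, was named after its values were seen. It was at 129 ± 50.9 CPM with vehicle and 117 ± 10.2 CPM with rhCYGB (SD, n = 3), with a log2 fold change of -0.14 (edgeR adjusted p = 0.828).

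The orosomucoid genes, Orm1 and Orm2, sit on chromosome 4 at 63344556 to 63348163 and 63362449 to 63365877, and their transcripts were 91.0% identical. Orm1 was at 1099, 2680.4 and 2109 CPM in the 3 vehicle mice, against 1407, 3402 and 3649 CPM in the 3 treated mice. Orm2 was at 226, 781 and 454 CPM and at 253, 609 and 419 CPM. Within each group replicate 1 was the lowest for both genes, and the groups overlapped. The log2 fold changes were 0.52 (SE 0.52, edgeR adjusted p = 0.632) for Orm1 and -0.19 (SE 0.53, edgeR adjusted p = 0.856) for Orm2. In TPM Orm1 measured 3963, 6099 and 5417 without treatment and 3899, 4686 and 4302 under it, and Orm2 measured 821, 1788 and 1174, then 706, 844 and 497. Both thus had lower mean TPM with rhCYGB, with overlapping groups, while the CPM of Orm1 had a higher mean. Orm3, the least expressed orosomucoid gene, named after its values were seen, was at 17.8 ± 8.996 and 51.8 ± 43.3 CPM (SD, n = 3), with 101 CPM in rhCYGB replicate 3.

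Lcn2, on chromosome 2 at 32384637 to 32387739, was at 663, 1756 and 1376 CPM in vehicle livers, and 596, 1466 and 1588 CPM in treated livers. Replicate 1 of each group was again the lowest, the groups overlapped, and the log2 fold change was -0.06 (SE 0.53, edgeR adjusted p = 0.960). In TPM Lcn2 was at 2185, 3649 and 3228 in the 3 vehicle mice, against 1508, 1844 and 1709.9 in the 3 treated mice, without overlap. On that scale 12.7% of all genes were lower without overlap. Apcs, on chromosome 1 at 172893961 to 172895054, was at 149, 247 and 167 CPM and at 148, 338 and 306 CPM, with a log2 fold change of 0.49 (SE 0.40, edgeR adjusted p = 0.584). In TPM its values ran from 340.1 to 444 in vehicle livers and from 286 to 369 in treated ones.

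Fibrinogen made up about as much of the expression of these genes as the other 7 together. The 3 chains together held between 47.2% and 59.7% of the summed TPM of the 10 genes in each library. Fgb, the beta chain, was at 2972, 5529.7 and 3895 CPM in vehicle livers, and 3255, 5726 and 8919.9 CPM in treated livers. Fgg, the gamma chain, was at 2582, 4854 and 3479 CPM and at 2741, 5321 and 7722 CPM. Both were highest in rhCYGB replicate 3, where the TMM factor was smallest, and the groups overlapped. Fga, the alpha chain, was at 2981, 5473 and 3900.4 CPM and at 3390.4, 4193 and 5397 CPM. The log2 fold changes were 0.53 for Fgb (SE 0.50, edgeR adjusted p = 0.619), 0.53 for Fgg (SE 0.50, edgeR adjusted p = 0.619) and 0.07 for Fga (SE 0.41, edgeR adjusted p = 0.932). In TPM Fgb measured 4895, 5749 and 4570.4 without treatment and 4121, 3604 and 4804 under it, Fgg 4200.3, 5009 and 4045, then 3417, 3339 and 4159.8, and Fga 2539, 2933 and 2359, then 2241, 1362 and 1493. On that scale Fga was lower without overlap between the groups, as were 12.7% of all genes. All 3 fold changes pointed the other way, at -0.28, -0.28 and -0.65 by limma on log2(TPM + 1). The median of all tested genes was -0.51 on that scale, against -0.06 with TMM.

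Ratios between genes of the same library do not depend on the scaling between libraries. Fgg kept a ratio of 0.872 ± 0.0135 to Fgb with vehicle and of 0.874 ± 0.0491 with rhCYGB (SD, n = 3, TPM over TPM). Fga was at 0.519, 0.510 and 0.516 of Fgb with vehicle, and at 0.544, 0.378 and 0.311 with rhCYGB, so the alpha chain was low against the beta chain in rhCYGB replicates 2 and 3 only. The size of this ratio rests on the deposited lengths, 3360 bases for the more abundant Fga transcript and 1705 for Fgb. GENCODE M21 gives 2083 and 3810. In estimated counts Fga and Fgb were close, at 251995 and 251181 in vehicle replicate 1. The mean log2 difference was -0.37 for Fga to Fgb (exact permutation test, two-sided, p = 0.4, adjusted p = 0.5 over 5 ratios) and 0.0024 for Fgg to Fgb (exact permutation p = 1). With 3 mice per group the smallest p this test can give is 0.1. The same pair of libraries had length slopes of -0.36 and -0.34 (the change in log2 expression per doubling of transcript length), against -0.016 to 0.41 in the other libraries, and the part of this in the Fga ratio was not tested. With a trend on the deposited transcript lengths removed from each library the log2 fold changes of Fga, Fgb and Fgg were 0.24, 0.32 and 0.33.

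**Figure D2:**
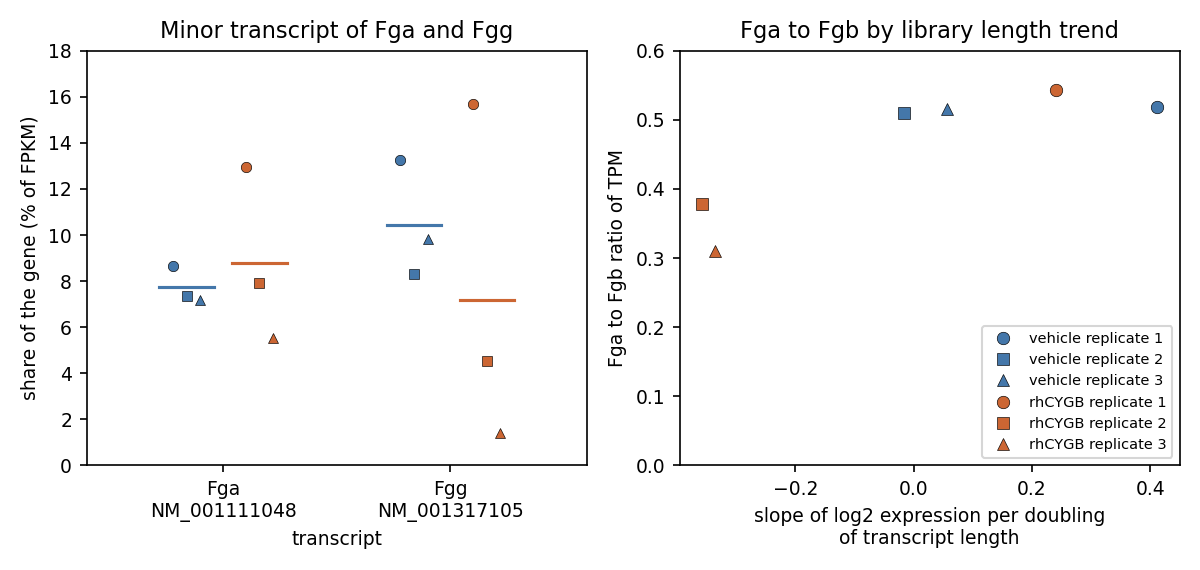
Left, share of the FPKM of Fga and Fgg carried by their less abundant transcripts in each library, in percent, with lines at group means of 3 mice. Right, ratio of Fga to Fgb in TPM against the slope of log2 expression on transcript length in each library. rhCYGB replicates 2 and 3 have Fga to Fgb ratios of 0.378 and 0.311 and negative slopes, and the remaining 4 libraries have ratios between 0.510 and 0.544.

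Fga and Fgg each had 2 transcripts in the deposited table. The longer protein of Fga is encoded by NM_001111048, with 789 codons in GENCODE M21 against 557 for NM_010196, and carries an added carboxy-terminal domain. In GENCODE M21 NM_010196 stops before the last exon of NM_001111048, whereas both transcripts have the same end in the deposited table, so these models of NM_010196 differ. NM_001111048 held 8.67%, 7.34% and 7.19% of Fga with vehicle and 12.9%, 7.91% and 5.51% with rhCYGB. For Fgg, NM_001317105 lacks the last exon of NM_133862 (number 10, chr3:83014835-83015049) and has 443 codons against 436. It held 13.2%, 8.30% and 9.81% of Fgg with vehicle and 15.7%, 4.51% and 1.38% with rhCYGB, so the share peaked in the first treated liver and was least in rhCYGB replicates 2 and 3. By edgeR 0 of the 12 transcripts of the 10 genes passed, as did 0% of the 19664 transcripts tested. At an unadjusted p under 0.05 there was 1, that of Saa2, against 4.04% of all transcripts. NM_001317105 had a log2 fold change of -0.53 (SE 0.54, edgeR adjusted p = 0.824) and NM_133862 of 0.51 (SE 0.49, edgeR adjusted p = 0.823).

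Relative to most of their 9 partners in the same library, Saa1 and Saa2 were lower in every treated mouse than in any vehicle mouse. Saa1 was at 0.130, 0.333 and 0.258 of Fgb with vehicle and at 0.0982, 0.104 and 0.0321 with rhCYGB, a mean log2 difference of -1.70 (exact permutation p = 0.1, the smallest possible, adjusted p = 0.25 over 5 ratios). No treated library reached the lowest vehicle library, and 2.57% of all genes were lower relative to Fgb without overlap. Saa2 was lower relative to 8 of its 9 partners, all but Saa1, and Saa1 relative to 7, Fga and Saa2 being the ones it overlapped. The corresponding shares of all genes that were higher relative to Saa2 and Saa1 without overlap were 39.9% and 25.8%. Saa3 was higher relative to 5 of 9 (Saa1, Saa2, Orm2, Lcn2 and Fga), and 43.8% of all genes were lower relative to Saa3 without overlap. Orm1 to Lcn2, a pair noticed after the values were seen, had narrow ranges, 1.67 to 1.81 with vehicle and 2.52 to 2.59 with rhCYGB, and 12.3% of genes were higher relative to Lcn2 without overlap.

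Within the families the balance also differed between libraries. Saa1 to Saa2 was 1.45, 1.41 and 1.57 in the 3 vehicle mice, against 1.48, 2.20 and 2.59 in the 3 treated mice, a log2 difference of 0.46 (exact permutation p = 0.2, adjusted p = 0.333), with rhCYGB replicate 1 inside the vehicle range. Orm1 to Orm2 was 4.83, 3.41 and 4.61 and then 5.53, 5.55 and 8.66, a log2 difference of 0.60 without overlap (exact permutation p = 0.1, adjusted p = 0.25), where 8.90% of genes were higher relative to Orm2 without overlap. Saa3 to Saa1, also chosen after the values were seen, was 0.0478, 0.0333 and 0.0536 in vehicle livers, and 0.267, 0.143 and 0.276 in treated livers. The lowest treated value there was above the highest vehicle value, as it was for the 25.8% of genes given above. Saa4 to Saa1 likewise did not overlap, at 0.172, 0.0805 and 0.0986, then 0.292, 0.175 and 0.305. Orm3 to Orm1 did not overlap either, at 0.00686, 0.00902 and 0.0105, then 0.0129, 0.0109 and 0.0277, with rhCYGB replicate 3 highest, where 3.96% of genes were higher relative to Orm1 without overlap.

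**Figure D3:**
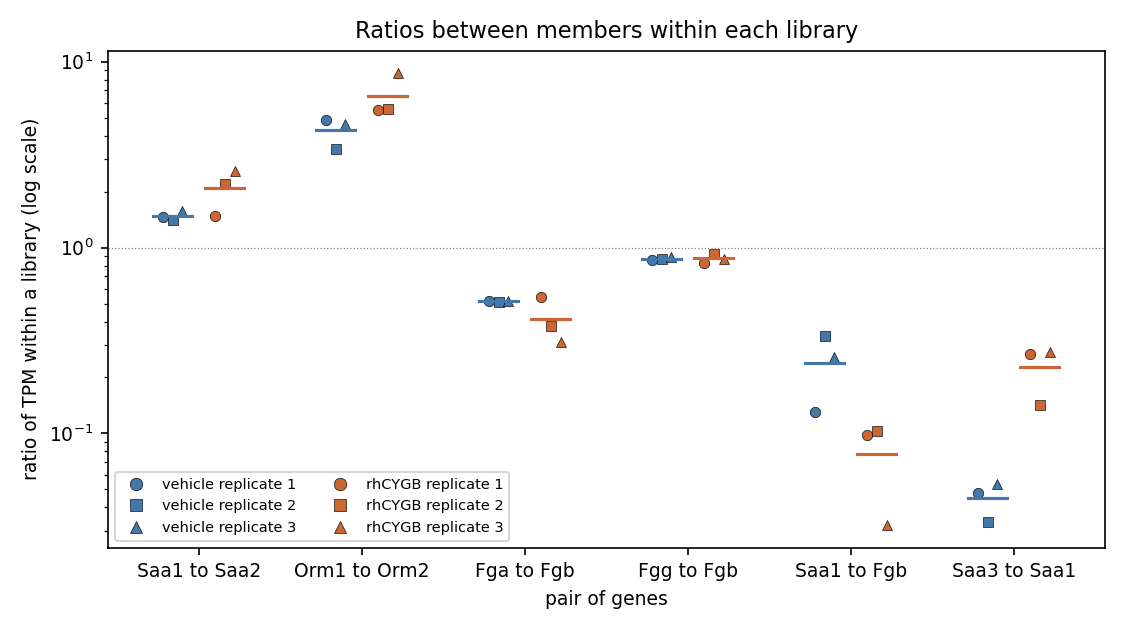
Ratio of TPM between 2 genes within each library, on a log axis, for 6 pairs. Each point is 1 mouse and lines are group means. Saa1 to Fgb and Saa3 to Saa1 separate the groups in opposite directions, and Fgg to Fgb stays between 0.829 and 0.926 in all 6 libraries.

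As a list, the 10 genes did not all lie on the same side of 0. By edgeR 6 of 10 had a positive log2 fold change, against 46.8% of all genes tested, and their median was 0.28, against -0.06. At an unadjusted p under 0.05 there were 2, Saa1 and Saa2, against 8.12% of all genes, and by CPM the groups did not overlap for 1, Saa3, against 13.4%. On log2(TPM + 1) 1 of 10 was positive, against 12.8% of all genes, the median was -0.48, and the groups did not overlap for 4 (Saa1, Saa2, Lcn2 and Fga), against 14.0%. At an unadjusted p under 0.05 there were 5 on that scale, against 7.78%, and 5 on log2(TPM + 0.1), against 7.64%. With a trend on transcript length removed, 4 had such a p, against 9.84%, and the groups did not overlap for 4, against 17.0%, while upper-quartile scaling gave 2 without overlap, against 14.5%. With sample quality weights limma-voom called 2 (Saa2 and Apcs), against 30.6%, and gave 4 at an unadjusted p under 0.05, against 46.2%, and DESeq2 called 1, against 3.28%. With rhCYGB replicate 1 left out edgeR called 23.2% of all genes and 0 of the 10. In that fit 2 had an unadjusted p under 0.05, against 42.0%, and 5 did not overlap, against 64.3%. Without both rhCYGB replicates 2 and 3, 1 was positive, against 46.2%, 5 did not overlap, against 41.7%, and 0 had an unadjusted p under 0.05, against 2.10%. Across the 18 ways of fitting the data shown in the plot of fold changes by setting, Saa1 and Saa2 were negative and Saa3 positive in each.

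**Figure D4:**
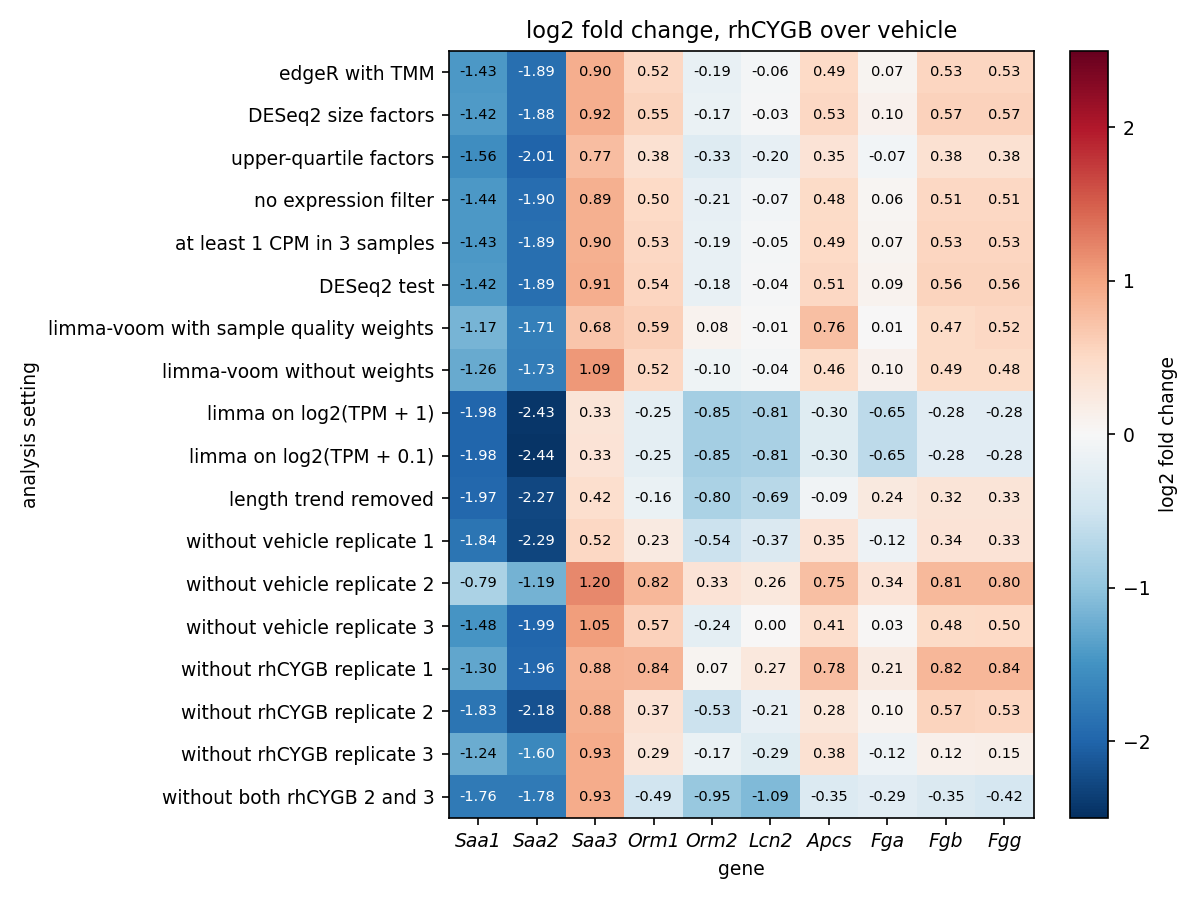
Log2 fold change of rhCYGB over vehicle for the 10 genes (columns) under each analysis setting (rows), blue for lower and red for higher with rhCYGB. Saa1 and Saa2 stay below 0 and Saa3 above 0 in all 18 rows. Orm1, Orm2, Lcn2, Apcs, Fga, Fgb and Fgg each change sign with the scaling, the test or the libraries used.

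Other acute phase proteins, from a list, were mostly higher by CPM. Of 27 other positive acute phase genes 26 were tested and 21 had positive fold changes, against 46.8% of all genes, with a median log2 fold change of 0.66, and 0 passed the adjusted threshold. At an unadjusted p under 0.05, 5 were higher and 1 lower, against 6.06% and 2.06% of all genes. Without rhCYGB replicate 1 edgeR called 9, 7 higher and 2 lower, against 12.7% and 10.5% of all genes. The most abundant were Hpx, the heme carrier hemopexin, at 12321 ± 4031 and 15642 ± 5800.3 CPM, and Hp, haptoglobin, at 9807 ± 4378 and 15334 ± 7975 CPM (SD, n = 3). Negative acute phase proteins, whose output falls in inflammation, had positive fold changes for 9 of 10, with a median of 1.01 and 0 past the adjusted threshold (5 without rhCYGB replicate 1, all higher, and 2 at an unadjusted p under 0.05). Albumin, Alb, averaged 63542 ± 15808 CPM in vehicle livers and 117969 ± 39949 CPM in treated ones, and transferrin, Trf, 34986 ± 9446 and 39858 ± 9407 CPM. On log2(TPM + 1) the medians of these lists were -0.16 and 0.17, so the direction of the positive list depended on scaling.

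Genes that induce the response were measured in the same tissue. Of the 10 cytokine ligands on the list 7 had enough counts to test. By CPM 6 of the 7 were lower without overlap between the groups, against 7.38% of all genes. In TPM Il1a, Il1b, Lif and Clcf1 overlapped, while Tnf and Osm did not, against 12.7% of all genes lower without overlap. Osm had 16, 0 and 0 estimated counts with rhCYGB. Of the 7, 0 passed the adjusted threshold by edgeR. Tnf was the 1 with an unadjusted p under 0.05, against 2.06% of all genes lower at that p. Without rhCYGB replicate 1 edgeR called 4 of the 7, 3 lower and 1 higher, against 10.5% and 12.7% of all genes. Il1b, interleukin 1 beta, was at 7.16, 8.001 and 5.90 CPM in the 3 vehicle mice, against 5.60, 3.30 and 1.22 CPM in the 3 treated mice (log2 fold change -1.05, edgeR adjusted p = 0.523). Ctf1, cardiotrophin 1, was the exception, at 4.78 ± 1.71 and 9.21 ± 3.36 CPM (SD, n = 3). Il6 itself had 0, 12 and 0 estimated counts with vehicle and 4, 0 and 0 with rhCYGB, too few to compare, and Il22 had 0 in every library. Receptors of these cytokines had a median log2 fold change of 0.015 over 8 genes, with Tnfrsf1a at 124 ± 14.2 and 116 ± 16.6 CPM and Il1rap at 36.6 ± 8.77 and 39.7 ± 7.47 CPM. Stat3, the main transducer of interleukin 6, was at 78.9 ± 6.26 and 98.8 ± 23.1 CPM, and the NF-kB inhibitor Nfkbia at 31.5 ± 3.81 and 25.0 ± 11.3 CPM (SD, n = 3). Among 8 transcription factors of acute phase genes 5 were positive, with Hnf4a at 379 ± 39.3 and 663 ± 289.6 CPM and Cebpa at 178 ± 40.0 and 133 ± 76.5 CPM, and Cebpa was lowest in rhCYGB replicates 2 and 3, at 88.5 and 89.8 CPM. Of the 10 transducers and inhibitors 2 were positive and 8 negative. In these 3 lists 0 passed by edgeR, and 1 transcription factor was higher at an unadjusted p under 0.05. Without rhCYGB replicate 1, where 23.2% of all genes were called, edgeR called 4 of 8 transcription factors (1 higher), 3 of 10 transducers (1 higher) and 0 of 8 cytokine receptors.

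Partners of the proteins were read from 2 more lists. Of 8 receptors of serum amyloid A or lipocalin 2, 7 were tested and 4 were positive, with Scarb1, the high-density lipoprotein receptor, at 203 ± 34.1 and 243 ± 34.4 CPM and the scavenger receptor Cd36 at 188 ± 67.0 and 151 ± 105 CPM. Of 9 genes that clot or dissolve fibrin 4 were positive and 5 negative, with F2, prothrombin, at 1179 ± 302 and 1619.6 ± 423 CPM and Plg, plasminogen, at 1276 ± 290.2 and 1743 ± 387 CPM (SD, n = 3). At an unadjusted p under 0.05 by edgeR there were 2 in the clotting list, both lower, against 2.06% of all genes. In the receptor list there were 0, and 0 passed the adjusted threshold in either list. By CPM the groups did not overlap for 3 of the 9 clotting genes, all lower, against 7.38% of all genes. These 3 were named after their values were seen: F13a1, the fibrin cross-linking factor, at 6.54 ± 1.02 and 2.10 ± 1.10 CPM, and the plasminogen activators Plat, at 9.04 ± 1.08 and 4.15 ± 2.80 CPM, and Plau, at 9.68 ± 3.99 and 3.08 ± 2.16 CPM (SD, n = 3). Without rhCYGB replicate 1 edgeR called 5 of 9 clotting genes, all lower, against 10.5% of all genes called lower. It called 3 of 7 receptors, 2 of them higher, where 23.2% of all genes were called in either direction.

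Other cell types that can make these proteins were followed through their markers. Summed hepatocyte marker CPM ran from 59178 to 101324 with vehicle and from 90849.7 to 200315 with rhCYGB, over 10 of 10 detected genes. Macrophage markers, 10 of 10 detected, summed to 1483 to 2450.1 and 1366 to 2296 CPM, and neutrophil markers, 8 of 12 detected in every library and Ly6g at 0 in all, to 47.6 to 77.0 and 41.7 to 59.2 CPM. Bile duct markers, 9 of 9 detected, did not overlap between the groups, at 971 to 1081 CPM with vehicle and 222 to 608 CPM with rhCYGB, most of it from Spp1 at 921 ± 46.3 and 318 ± 215 CPM (SD, n = 3), while Krt19 was at 20.7 ± 1.65 and 31.7 ± 15.9 CPM. Stellate cell markers, 10 of 10 detected, did not overlap by CPM either, at 615 to 769 and 185 to 531 CPM. Endothelial markers, 5 of 5 detected, ran from 71.5 to 100.3 and from 49.9 to 104 CPM. In TPM the stellate sum overlapped, at 373.2 to 739 and 54.9 to 386, and the macrophage sum did not, at 2364 to 3649 and 877 to 2111. The bile duct sum did not overlap in TPM, at 1185 to 2075 and 131 to 893. The hepatocyte sum, which overlapped by CPM, was higher without overlap in TPM, at 85663 to 98530.2 and 102576 to 117263. In TPM 1.33% of single genes were higher without overlap. Of single genes 7.38% were lower without overlap by CPM and 12.7% in TPM. Of 6 adipocyte markers Adipoq, Lep, Plin1 and Cfd were at 0 in all libraries. The part of these cells in the values of the 10 genes was not tested.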

How the data were processed

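RNA of 6 livers, 1 per mouse, went through a stranded mRNA kit and was sequenced from both ends, per the labels' protocols. The submitters' processing notes name StringTie 1.3.4d, HISAT2 2.1.0, FastQC 0.11.7 and the build mm10. How strand was treated is not given in the sources used here, nor is the annotation, so overlapping genes are uncertain. The authors deposited an estimated count, as a whole number, and an FPKM value for each gene and transcript. Over transcripts above 1000 counts these estimated counts matched FPKM times transcript length times 1 constant per library, with ratios to the median from 0.9998 to 1.0008, so they have no plain counting error and the spread between mice sets the precision. Total counts are given with the results.

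Deposited FPKM were rescaled to TPM. Counts were tested in R 4.3.3 with edgeR 4.0.16 (filterByExpr, TMM, robust quasi-likelihood F test, Benjamini-Hochberg over 14415 genes or 19664 transcripts), with the method checked on simulated data. The simulated counts were drawn separately for each gene, so they hold no split between libraries of a group like the one seen here. Standard errors (SE) come from the F statistic, as the absolute fold change on the log2 scale divided by its root. Within-library ratios used log2(TPM + 0.1) and an exact two-sided permutation test. Alternatives used DESeq2 1.42.0, limma 3.58.1, other scalings, filters and pseudocounts, removal of a loess trend on transcript length, and left-out libraries. Sequences were aligned with Biopython 1.88.

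Groups come from the treatment label, and replicates are separate mice numbered in order of deposition. The 10 genes, lists and tests were chosen with earlier results of these data known. All 10 genes are named, and from each other list the 2 most abundant, since none passed. Saa4, Orm3, Tnf, Il1a, Lif, Clcf1, Osm, Il6, Il22, Spp1, Krt19, F13a1, Plat and Plau were named after their values were seen.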

Additional observations from a re-analysis of the deposited data

How the results depend on the processing

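No paired analysis was possible because the labels number each mouse once and pair no mice between the groups. Of the 10 genes 0 passed an adjusted p of 0.05 by edgeR; 1 passed by the DESeq2 test and 2 (Saa2 and Apcs) by limma-voom with sample quality weights. The count at an unadjusted p under 0.05, 2 by edgeR, was 4 with quality weights, 5 on log2(TPM + 1) and on log2(TPM + 0.1), 4 with the length trend removed, 0 without both rhCYGB replicates 2 and 3, and between 0 and 2 with 1 library left out. Non-overlapping genes numbered 1 by edgeR, 2 with upper-quartile factors, and 4 on both TPM scales and with the length trend removed. They numbered 5 without both rhCYGB replicates, and 1 to 5 with 1 library left out. Smaller groups separate more easily, so these counts need the share of all genes beside them. That share was 13.4% by edgeR and 41.7% without both rhCYGB replicates. When rhCYGB replicate 1 was dropped, 5 of the 10 did not overlap, against 64.3% of all genes. When any other single library was dropped, 1 to 3 of the 10 did not, against 16.1% to 21.4%. Genes with a positive fold change, 6 by edgeR, numbered 1 on both TPM scales and without both rhCYGB replicates, with a median of -0.48 on both TPM scales and -0.45 without those libraries. That median, 0.28 by edgeR, was also -0.12 with the length trend removed, and ran from -0.00029 (without rhCYGB replicate 3) to 0.54 with 1 library left out.

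Signs turned as follows. On log2(TPM + 1) Orm1 was at -0.25, Apcs at -0.30, Fga at -0.65, Fgb at -0.28 and Fgg at -0.28, with the same values to 2 decimals on log2(TPM + 0.1). With the length trend removed Orm1 was at -0.16 and Apcs at -0.086, with upper-quartile factors Fga was at -0.070, and with quality weights Orm2 was at 0.082. Without both rhCYGB replicates 2 and 3 Orm1 was at -0.49, Apcs at -0.35, Fga at -0.29, Fgb at -0.35, Fgg at -0.42, Fga to Fgb at 0.078 and Fgg to Fgb at -0.072. With 1 library left out the log2 fold change of Fga ran from -0.12 to 0.34, of Orm2 from -0.54 to 0.33, of Lcn2 from -0.37 to 0.27, and of the Fgg to Fgb ratio from -0.040 to 0.039. The cause of these turns was not tested.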
